A study of Mus musculus with 2 samples.

Results

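Neutrophils carry their antimicrobial and proteolytic proteins in granules, and the 10 genes described here encode such proteins or, for Ly6g, a surface antigen used to identify the cells. They were chosen by symbol from the 31053 genes listed in both libraries, and all 10 were found. RNA of single cells was captured with 10x 3′ chemistry from the tongues of wild-type C57BL/6 mice in which the carcinogen 4NQO had induced head and neck squamous cell carcinoma. The JQ1 library came from mice given JQ1 over 10 days, a compound that blocks BET bromodomain proteins from binding acetylated histones, and the control library from mice that received the control treatment for the same time. Each treatment has 1 library and no source used here says how many mice stand behind it, so no value has a replicate, no test was made, and treatment and library cannot be told apart. All intervals given are at 95% and reflect the error of counting alone.

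Granule proteins are made in sequence as a neutrophil matures in the bone marrow. Promyelocytes fill primary (azurophil) granules with serine proteases and myeloperoxidase, myelocytes and metamyelocytes fill secondary (specific) granules with lactoferrin, lipocalin and cathelicidin, and band cells fill tertiary (gelatinase) granules with metalloproteinases. Transcription of the earlier sets is switched off before the cell leaves the marrow, so a mature tissue neutrophil holds the proteins with little of the mRNA. Lcn2 and Ltf are also made by epithelia, where lipocalin withholds siderophore-bound iron from bacteria and lactoferrin binds free iron.

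The JQ1 library held 16233 barcodes with 99565417 UMIs, of which 14044 cells were kept (median 3879 UMIs), and the control library held 9754 barcodes with 118382532 UMIs, of which 8150 cells were kept (median 11302.5 UMIs). In all, 40 barcodes occurred in both libraries, among them 3 JQ1 and 4 control neutrophil-like cells. Both neutrophil clusters carried 13 of 13 neutrophil markers. The first, led by Camp, also carried 13 of the 14 markers of developing neutrophils and is called immature neutrophil-like. It held 159 JQ1 cells (median 4588 UMIs) and 3 control cells, and it formed although the 10 genes had been left out of the clustering. The second, led by the chemokine gene Ccl3, held 534 JQ1 cells (median 1681.5 UMIs) and 550 control cells (median 1486 UMIs). The cells of the immature cluster were thus 22.9% of 693 JQ1 neutrophil-like cells and 0.542% of 553 control neutrophil-like cells. The 3 control cells held UMIs of 4, 5 and 7 of the 14 markers of developing neutrophils. Chil3, Cd177, Pglyrp1 and Ifitm6 were in all 3, while Fcnb, Ms4a3, Stmn1 and Mki67 had 0 UMIs. The name therefore describes the cluster and not each of these 3 cells. Blood was a further difference between the libraries: 246 JQ1 cells and 0 control cells were erythroid-like, and the haemoglobin gene Hbb-bs stood at 6668 CPM over all kept JQ1 cells and 0.616 CPM over all kept control cells. In the immature JQ1 cells the blood stem or progenitor genes Flt3 and Meis1 had 0 UMIs, Kit 14 and Cd34 23. The part of blood in the values below was not tested.

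The 4 primary granule genes were read almost wholly from a few JQ1 cells. Elane encodes neutrophil elastase, Prtn3 proteinase 3 and Ctsg cathepsin G, all serine proteases of the azurophil granule, and Mpo encodes myeloperoxidase, which makes hypochlorous acid. Elane and Prtn3 are neighbours on chromosome 10, 3073 bp apart, Mpo lies on chromosome 11 and Ctsg on chromosome 14. Their promoters (RefSeq, GRCm38.p6, from 250 bases before to 50 bases after the listed start) are shown because these 4 genes moved together from cell to cell. Capitals mark GAGGAA, or TTCCTC on the other strand, the core letters bound by PU.1, the lineage factor of myeloid cells.
Elane, chr10:79886062-79886361, plus strand: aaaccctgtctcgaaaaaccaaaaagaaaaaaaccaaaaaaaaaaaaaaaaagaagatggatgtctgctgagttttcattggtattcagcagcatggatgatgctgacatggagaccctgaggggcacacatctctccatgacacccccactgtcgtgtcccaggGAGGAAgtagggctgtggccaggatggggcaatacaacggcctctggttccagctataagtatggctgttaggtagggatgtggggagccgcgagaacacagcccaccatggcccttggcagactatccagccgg
Prtn3, chr10:79879417-79879716, plus strand: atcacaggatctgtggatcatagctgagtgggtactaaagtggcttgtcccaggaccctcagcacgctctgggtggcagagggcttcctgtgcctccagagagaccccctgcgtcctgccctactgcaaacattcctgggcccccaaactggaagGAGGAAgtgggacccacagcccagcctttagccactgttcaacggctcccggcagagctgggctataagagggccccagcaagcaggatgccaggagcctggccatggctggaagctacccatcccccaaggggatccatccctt
Mpo, chr11:87793534-87793833, plus strand: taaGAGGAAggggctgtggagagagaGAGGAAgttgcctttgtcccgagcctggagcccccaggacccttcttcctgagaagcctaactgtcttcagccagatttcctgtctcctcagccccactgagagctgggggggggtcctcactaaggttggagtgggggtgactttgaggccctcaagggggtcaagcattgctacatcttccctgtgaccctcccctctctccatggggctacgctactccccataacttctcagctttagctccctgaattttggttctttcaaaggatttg
Ctsg, chr14:56102525-56102824, minus strand: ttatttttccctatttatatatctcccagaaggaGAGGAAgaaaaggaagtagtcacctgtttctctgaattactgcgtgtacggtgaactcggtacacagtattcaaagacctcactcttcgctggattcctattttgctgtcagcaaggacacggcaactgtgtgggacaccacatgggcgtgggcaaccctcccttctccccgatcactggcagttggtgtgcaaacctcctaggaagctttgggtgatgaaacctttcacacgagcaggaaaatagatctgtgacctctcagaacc
All 4 windows held the letters, at -85 in Elane, -95 in Prtn3 and -216 in Ctsg, counted from the listed start, and at 2 places in Mpo. Among all 10 genes 8 held them, the exceptions being Camp and Ngp, against 28.1% of 32544 promoters of this length. The letters TTNNGNAA (or TTNCNNAA), a loose form of the C/EBP site, were in 0 of these 4 windows and in 5 of the 10, those of Ngp, Ltf, Lcn2, Mmp8 and Ly6g, against 40.7% of promoters. MYB letters, CAACNG or CNGTTG, were in 6 of the 10 against 34.9%, and RUNX letters, TGTGGT or ACCACA, in 2 of the 10, Ctsg and Ltf, against 16.7%. These are matches of letters in a window and say nothing of binding.

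Summed over all neutrophil-like cells, the primary genes reached 2365 CPM (2298 to 2434) in JQ1, against 10.8 CPM (5.16 to 19.8) in control. Elane had 997 CPM from 1957 UMIs in JQ1 and 0 UMIs in control, at least 309-fold higher with the control set to 3 counts over the class. Mpo had 423 CPM in JQ1 and 0 UMIs in control, at least 131-fold higher. Ctsg had 164 CPM in JQ1 and 0 UMIs in control, at least 50.8-fold higher. Prtn3 was the primary gene with UMIs in control neutrophil-like cells, at 781 CPM in JQ1 and 10.8 CPM in control (10 UMIs in 10 cells), a ratio of 72.6 (39.3 to 152). Taken as a mean over cells, which weights shallow and deep cells alike, the log2 ratio of the primary sum was 5.16 in place of 7.78. Each sum rested on few cells: 24 of the 159 immature JQ1 cells held a primary UMI, and 10 cells held 96.6% of that cluster's Elane UMIs and 99.8% of its Mpo UMIs.

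Those cells were ranked on their primary UMIs, so the fall of primary counts along the ranks is set by the ranking. The first had 349 Elane, 142 Mpo, 306 Prtn3 and 52 Ctsg UMIs among 27455 UMIs, with 1 Camp, 0 Ngp, 0 Ltf, 3 Lcn2 and 0 Mmp8. The seventh had 79 Elane, 8 Mpo, 120 Prtn3 and 7 Ctsg UMIs, with 534 Camp, 165 Ngp, 5 Ltf and 61 Lcn2. The eleventh had 16 Elane, 3 Mpo, 27 Prtn3 and 0 Ctsg UMIs, with 933 Camp, 655 Ngp, 44 Ltf and 150 Lcn2. Summed Camp, Ngp and Ltf counts did not rise evenly: they were 1, 26, 38, 0, 40 and 0 in the first to sixth cells. In the seventh to eleventh cells they were 704, 463, 842, 1156 and 1632. Primary and secondary transcripts were present at once in single barcodes. Of the 24 cells, 22 held a primary UMI and one of Camp, Ngp or Ltf, and the fourth and sixth held none of these 3.

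The immature JQ1 cells were also grouped by their primary UMIs. The groups held 500 or more (5 cells), 100 or more but under 500 (4 cells), 10 to 99 (6 cells), 1 to 9 (9 cells) and 0 (135 cells). Median Camp was 4.51, 249, 419, 691 and 322 UMIs per 10000 across these 5 groups. Median Ngp was 4.34, 83.1, 252, 349 and 333, and median Lcn2 3.94, 33.1, 79.6, 145 and 163. Median Ltf was 0, 1.33, 10.8, 21.1 and 63.1. Camp was thus highest in cells with the last primary transcripts and Ltf in cells with none. Camp and Ngp spanned 0 to 987 and 0 to 866 per 10000 within the cells with no primary UMI, so these groups overlap widely.

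**Figure D1:**
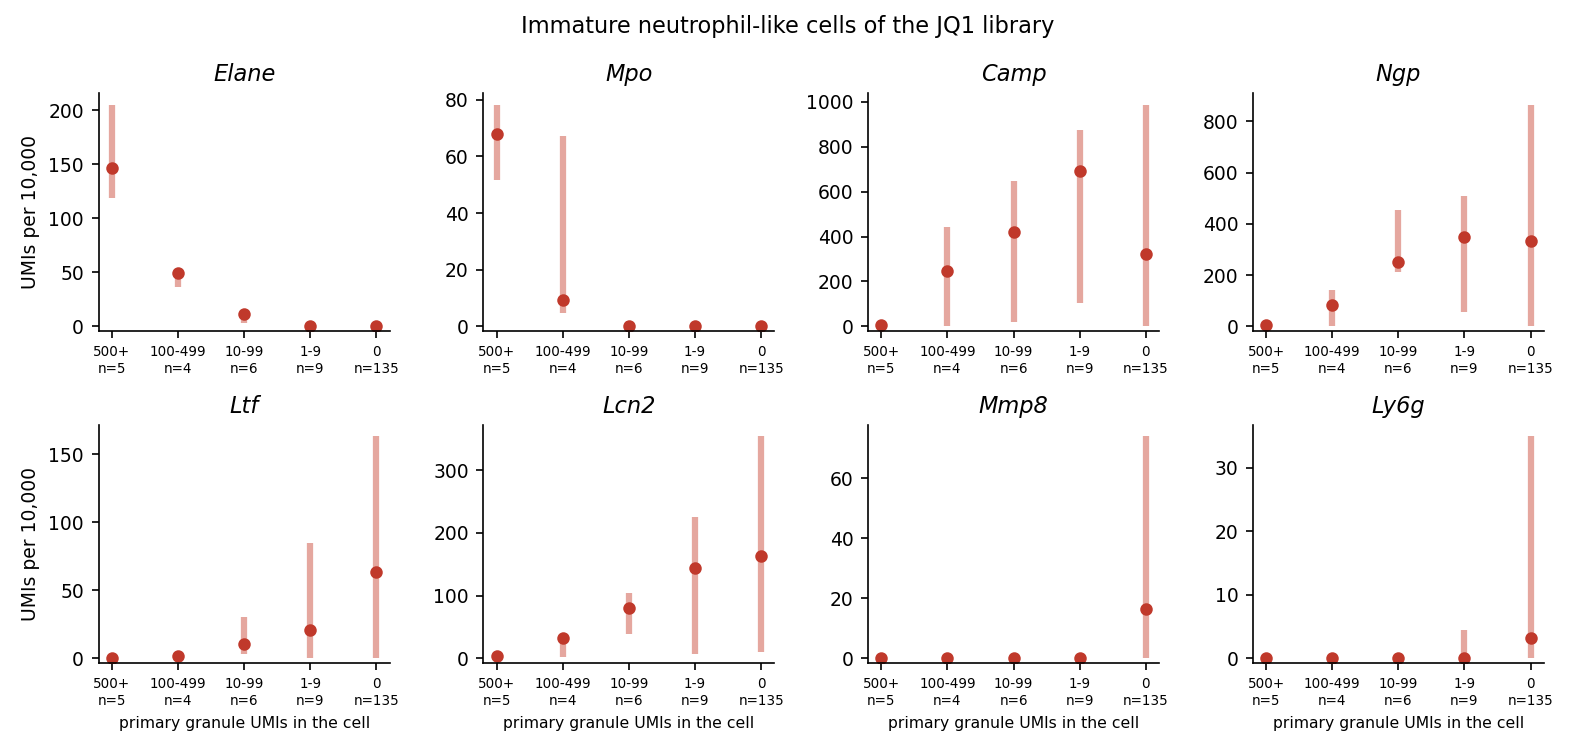
UMIs per 10000 of 8 of the genes in immature neutrophil-like JQ1 cells, grouped on the x axis by the number of primary granule UMIs in the cell. Points are medians and bars run from the lowest to the highest cell. Elane and Mpo are highest at the left, where median Camp and Ngp are 4.51 and 4.34, and Mmp8 is above 0 in the group with no primary UMI alone.

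Mmp8, the neutrophil collagenase, was in 0 of the 24 cells with a primary UMI and in 112 of the 135 without (83.0%). Those 24 cells were deeper, with group medians of 8673 to 18684 UMIs against 4278 UMIs in the cells without a primary UMI. Mmp9, the gelatinase of tertiary granules, had the same split: 0 of 24 cells against 121 of 135. Retnlg, a resistin-like gene of maturing neutrophils, stood at 216 CPM in the 24 cells and 14961 CPM in the others. At the early end, Ms4a3, a membrane protein of granulocyte progenitors, stood at 890 CPM in the 24 cells and 48.8 CPM in the others. Nkg7, a granule membrane protein, stood at 339 and 6.29 CPM. Of the further primary granule genes listed below, Serpinb1a was also higher in the 24 cells, at 394 and 255 CPM. Lyz2, at 5172 and 9359 CPM, and Ctsc, at 14.6 and 48.8 CPM, were lower there. The median of that whole list was lowest in the cells with most primary UMIs. On the scale of the grouped medians above it was 33.1, 37.2, 96.0, 105 and 89.9 from most to no primary UMIs. The growth regulator gene Myb stood at 96.3 CPM in the 24 cells and 22.0 CPM in the others, and the proliferation gene Mki67, in 18 of 24 and 6 of 135 cells, at 204 and 64.5 CPM. The cells were split on these granule genes, so these values describe the order and carry no test.

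Across the 159 immature JQ1 cells the members formed blocks. On log counts per 10000, Pearson's r was 0.95 between Elane and Prtn3, 0.98 between Mpo and Ctsg, 0.82 between Camp and Ltf, 0.73 between Camp and Ngp and 0.79 between Ngp and Lcn2. It was -0.22 between Elane and Camp, -0.69 between Elane and Lcn2 and -0.44 between Elane and Mmp8. All these cells come from 1 library and differ in depth. Genes outside the set were ranked by likeness to Elane if found in at least 5% of the 693 JQ1 neutrophil-like cells. Among these, the most like Elane were Dtymk (r = 0.52) and Dut (0.51), both enzymes of thymidine nucleotide supply, then Ranbp1, Gstm1 and Cdc25a. Elane itself was in 18 immature and 1 Ccl3-led JQ1 cells, so genes as restricted as Elane could not be ranked. Ms4a3, in 32 immature and 0 Ccl3-led JQ1 cells, fell below the limit, although 22 of the 24 cells with a primary UMI held it. With no control cell holding an Elane UMI, the ranking used JQ1 cells alone.

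**Figure D2:**
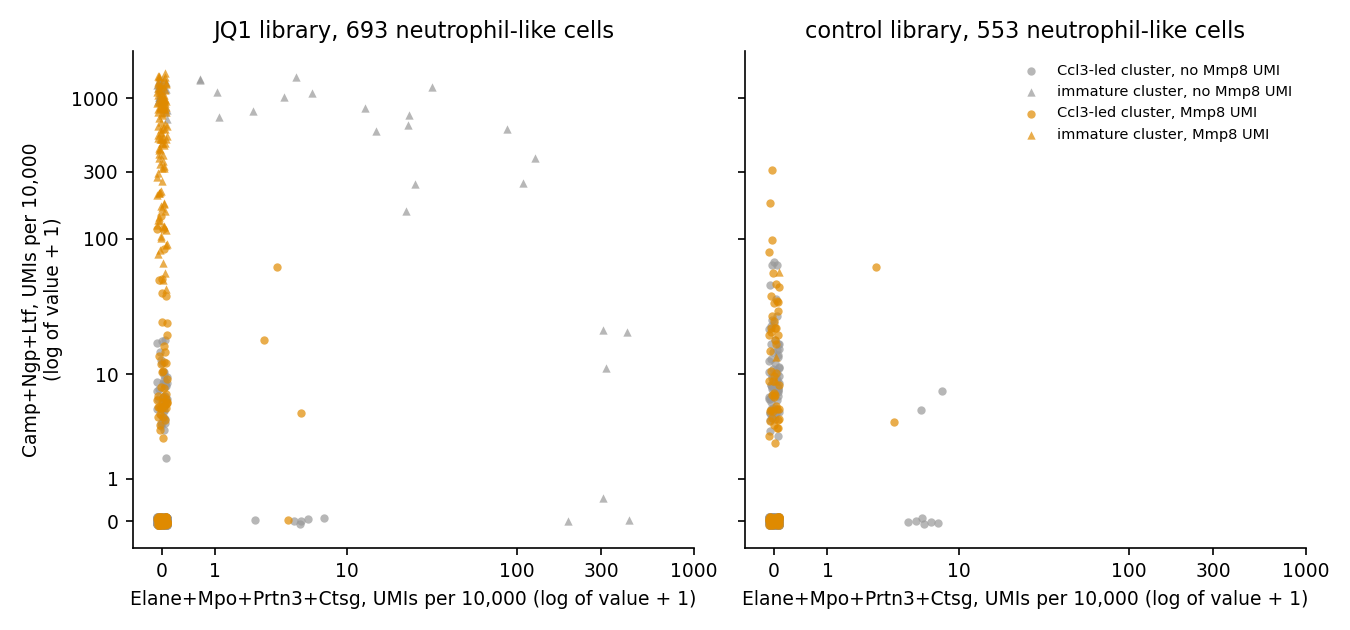
Each point is a neutrophil-like cell, with the sum of Elane, Mpo, Prtn3 and Ctsg on the x axis and of Camp, Ngp and Ltf on the y axis, in UMIs per 10000 on a log scale of the value plus 1, slightly jittered. The JQ1 panel (693 cells) holds an arc of grey triangles without Mmp8, from primary to secondary transcripts, which the control panel (553 cells) lacks.

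Outside the neutrophil clusters, 2 JQ1 barcodes of the macrophage or monocyte-like cluster carried a primary programme almost without secondary transcripts, and they were picked out after their values were seen. The first had 29 Elane, 61 Mpo, 60 Prtn3 and 17 Ctsg UMIs among 16186, with 0 Camp, 0 Ngp and 1 Lcn2. The second had 13 Elane, 30 Mpo, 39 Prtn3 and 22 Ctsg UMIs among 20442, with 1 Camp, 0 Ngp and 0 Lcn2. Ms4a3 had 3 and 10 UMIs in them, S100a8 0 and 0, C1qa 0 and 0, and Csf1r 2 and 0. S100a8, a neutrophil marker, was thus at 0 in both, but the neutrophil markers Clec4e (24 and 6 UMIs) and Clec4d (10 and 5) were present. They held UMIs of 4 and 3 of the 13 neutrophil markers and of 5 and 5 of the 14 markers of developing neutrophils. Other genes set them apart: Il1b had 76 and 1 UMIs, Ly6c2 18 and 0, Myb 0 and 3 and Mcpt8 0 and 3. These 2 barcodes held 167 and 104 of the 282 primary UMIs of the macrophage-like class in JQ1.

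Camp, Ngp or Ltf was found in 155 of the 159 immature JQ1 cells, and Lcn2 in every one of the 159. Camp encodes the cathelicidin antimicrobial peptide, Ngp the cystatin-like neutrophilic granule protein, Ltf lactoferrin and Lcn2 lipocalin 2. Per immature JQ1 cell, Camp ran from 0 to 1297 UMIs with a median of 169, Ngp from 0 to 956 with a median of 155, Ltf from 0 to 130 with a median of 27 and Lcn2 from 2 to 326 with a median of 73. The 3 control cells of that cluster had 0, 0 and 3 Camp UMIs, 2, 5 and 10 Ngp UMIs and 26, 48 and 17 Lcn2 UMIs. They therefore held far fewer Camp and Ngp transcripts than the median JQ1 cell, and no fold is given against 3 cells.

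Over all neutrophil-like cells every secondary gene was higher in JQ1. Camp was 18804 CPM in JQ1 and 71.1 CPM in control, 265-fold (208 to 342). Ngp was 14880.1 CPM in JQ1 and 599.7 CPM in control, 24.8-fold (22.8 to 27.0), and Ltf was 2246 and 43.1 CPM, 52.2-fold (38.2 to 73.1). Lcn2 was 8717 CPM in JQ1 and 4651 CPM in control, 1.87-fold (1.81 to 1.94). All 10 genes passed 1.5-fold higher, where 36.8% of the 6644 genes measured in this class did. Elane, Mpo and Ctsg had 0 UMIs in control and Ly6g was under 10 CPM there. These genes counted as measured through their JQ1 level alone, which favours passing higher. In a set of cells chosen by neutrophil markers instead of clusters, the log2 ratio of the secondary sum was 4.91 in place of 5.65. The immature cluster supplied 98.2% of the JQ1 library's Camp UMIs, 96.7% of its Ngp UMIs and 97.0% of its Elane UMIs. Within the JQ1 library all 10 genes were at least 1.5-fold higher in the immature than in the Ccl3-led cells. Of 6383 genes 44.7% were higher there and 20.8% lower, as a description of clusters that were formed on the same cells. Elane, Mpo, Prtn3 and Ctsg were under 10 CPM in the Ccl3-led cells, so they counted as measured through the immature cells alone.

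In the Ccl3-led cells alone, Camp, Ngp and Lcn2 were lower in JQ1. Camp was 17.3 CPM in JQ1 and 68.4 CPM in control, a ratio of 0.252 (0.138 to 0.436), and Ngp was 257 CPM in JQ1 and 587 CPM in control, a ratio of 0.438 (0.375 to 0.509). Ltf was 28.4 CPM in JQ1 and 41.3 CPM in control, with 1 inside its interval (0.407 to 1.15). Lcn2 was 3816 CPM in JQ1 and 4594 CPM in control, a ratio of 0.831 (0.795 to 0.868), and primary transcripts were 11.2 and 10.9 CPM (0.396 to 2.70). Of the 6 genes measured there, 1 passed 1.5-fold higher and 2 passed 1.5-fold lower, where 17.2% and 16.9% of 5441 genes did. The Camp and Ngp ratios leaned on few control cells: without cells holding 20 or more Camp plus Ngp UMIs (3 JQ1 and 5 control cells), the log2 ratio was -0.73 for Camp, with 0 inside its interval (-1.70 to 0.21), and -0.88 for Ngp (-1.17 to -0.61), in place of -1.99 and -1.19. With no cell filter they were 2.01 and 1.27 higher in JQ1.

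**Figure D3:**
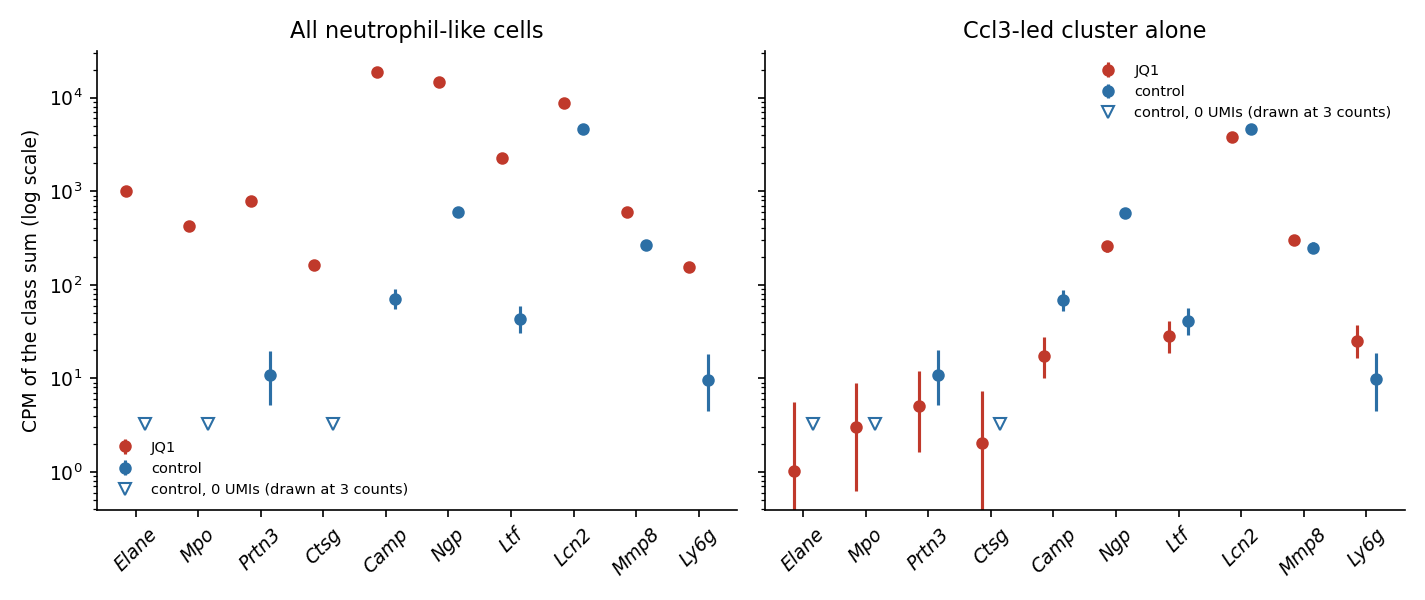
CPM of the 10 genes on a log axis over all neutrophil-like cells (left) and over the Ccl3-led cluster alone (right), JQ1 in red and control in blue, with 95% Poisson intervals. Open triangles mark 0 UMIs, drawn at 3 counts. The gap between libraries in Camp, Ngp and Ltf at the left turns round or closes at the right.

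Co-expression within the Ccl3-led cells was sparse in both libraries. A secondary UMI (Camp, Ngp or Ltf) was in 94 of 534 JQ1 cells and 126 of 550 control cells, a primary UMI in 10 and 10 cells, and both together in 3 and 4 cells. At equal depth, with each cell thinned to 1000 UMIs, a secondary UMI was in 13.5% of JQ1 and 18.7% of control Ccl3-led cells, a difference of -5.21 points (-9.92 to -0.492). Ngp was the more common secondary transcript, with 0.0672 Camp UMIs per Ngp UMI in JQ1 and 0.117 in control, against 1.27 in the immature JQ1 cells. Lcn2 was in 440 JQ1 cells (82.4%) and 414 control cells (75.3%), most of them without any other secondary transcript (353 and 298 cells). Of the 10 genes, Lcn2 was thus the one found in most Ccl3-led cells, with a median of 4 UMIs per cell in JQ1 and 3 in control. A primary UMI in 1.87% of JQ1 and 1.82% of control Ccl3-led cells compares with 1.78% of JQ1 and 1.15% of control fibroblast-like cells, whose median depth was 3856 and 2956.5 UMIs, and with 0 of 485 JQ1 and 0.382% of 262 control T-like cells. At equal depth it was in 5 of 468 JQ1 and 7 of 466 control Ccl3-led cells, in 19 of 4543 JQ1 (0.418%) and 2 of 818 control (0.244%) fibroblast-like cells, and in 0 of 435 JQ1 and 0 of 222 control T-like cells, which allows up to 0.690% and 1.35%.

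At equal depth, with each cell thinned to 1000 UMIs and shallower cells left out (66 JQ1 and 84 control), a primary UMI was in 3.51% of JQ1 and 1.49% of control neutrophil-like cells, a difference of 2.02 points (0.0633 to 3.92). Unthinned the shares were 4.91% and 1.81%, and with cells thinned to 2000 UMIs the difference was 5.84 points. A secondary UMI was in 34.6% of JQ1 and 19.2% of control cells, a difference of 15.4 points (10.2 to 20.5), and unthinned in 35.9% and 23.3%. In T-like cells, which should lack the genes, a secondary UMI was in 1.84% of thinned JQ1 and 1.35% of thinned control cells. Without Ltf, a Camp or Ngp UMI was in 0.920% of these JQ1 cells and 0 of 222 control cells, which allows up to 1.35%. Median depth of the T-like cells before thinning was 2332 and 1924.5 UMIs. The interval of the primary difference nearly reached 0, and it included 0 with cells chosen by markers (1.49 points, -0.28 to 3.11), with a stricter cell filter (1.80, -0.24 to 3.74) and with the doublet calls kept (1.41, -0.41 to 3.14).

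Mmp8 and Ly6g were higher in JQ1 both over the whole class and in the Ccl3-led cells. Mmp8 was 602 CPM in JQ1 and 265 CPM in control neutrophil-like cells, 2.27-fold (1.98 to 2.62), and in the Ccl3-led cells 302 CPM in JQ1 and 249.9 CPM in control, 1.21-fold (1.02 to 1.44). At equal depth it was in 18.4% of JQ1 and 13.7% of control Ccl3-led cells, a difference of 4.64 points with 0 inside the interval (-0.0755 to 9.35). Ly6g, whose protein antibodies use to mark mouse neutrophils, was 154 CPM in JQ1 and 9.69 CPM in control neutrophil-like cells, 15.9-fold (8.28 to 35.2), and in Ccl3-led cells 25.4 CPM in JQ1 and 9.78 CPM in control (25 and 9 UMIs), 2.60-fold (1.17 to 6.32). Ly6g has near-identical relatives in the genome, and no source used here says how shared reads were counted. Mmp8 and Ngp were weakly correlated in Ccl3-led cells of both libraries (r = 0.39 in JQ1, n = 534, and 0.33 in control, n = 550), and the genes most like Mmp8 over all neutrophil-like cells were Retnlg (r = 0.63 in JQ1 and 0.42 in control) and Pglyrp1 (0.45 and 0.35), a peptidoglycan-binding protein of granules.

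Further primary and secondary granule genes were read against all genes measured over neutrophil-like cells, of which 36.8% passed 1.5-fold higher in JQ1 and 12.8% lower. Some had also served to name the immature cluster: Ms4a3 and Serpinb1a of the primary list, and Chil3, Orm1, Cd177, Pglyrp1 and Ifitm6 of the secondary list. Lyz2 is in both lists. Genes such as Ms4a3, with 0 UMIs in control neutrophil-like cells, counted as measured through JQ1 alone. The counts of genes passing therefore describe the lists and are no independent support. Of 9 further primary granule genes measured over all neutrophil-like cells, 7 passed 1.5-fold higher in JQ1 and 1 passed lower, with a median log2 ratio of 3.22 against 0.29 over all measured genes (genes at 0 in control set to 3 counts). Serpinb1a, an inhibitor of elastase, was 153 CPM in JQ1 and 12.9 CPM in control, and Lyz2, lysozyme, 4288 and 667 CPM. The gene that passed lower was Ctsc, whose enzyme activates the granule serine proteases, at 37.7 CPM in JQ1 and 59.2 CPM in control, a ratio of 0.637 (0.443 to 0.919). Of 16 further secondary granule genes 10 passed higher and 0 lower, among them Cybb, the catalytic subunit of the phagocyte oxidase, at 729 CPM in JQ1 and 87.2 CPM in control. Of 8 tertiary or secretory granule genes 3 passed higher and 1 lower, a share near that of all genes, with a median log2 ratio of 0.42. Of 14 genes of mature or tissue neutrophils 1 passed higher and 7 lower over all neutrophil-like cells, and 0 and 0 passed in the Ccl3-led cells.

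Within the Ccl3-led cells, where 17.2% of all genes passed higher and 16.9% lower, 7 tertiary or secretory granule genes were measured. Of these, 4 passed 1.5-fold higher in JQ1 and 0 lower, with a median log2 ratio of 0.64 against -0.02 over all genes. Fpr1, a receptor for formylated bacterial peptides, was 614 CPM in JQ1 and 369 CPM in control, a ratio of 1.66 (1.45 to 1.90), and Adam8, a membrane metalloproteinase, 340 and 175 CPM, a ratio of 1.94 (1.61 to 2.36). Mmp9 was 399.9 and 377 CPM, a ratio of 1.06 (0.916 to 1.23). Of 15 further secondary genes 1 passed higher and 4 lower, with a median log2 ratio of -0.02, that of all genes. Chil3, a chitinase-like protein, was 882 CPM in JQ1 and 2206 CPM in control, a ratio of 0.400 (0.369 to 0.433), so that it was lower beside Camp and Ngp. Among regulators of the lineage, Cebpe, the factor that switches on secondary granule genes, was 153 CPM in JQ1 and 16.1 CPM in control over all neutrophil-like cells, and 9.13 and 15.2 CPM in the Ccl3-led cells (0.229 to 1.49 as a ratio).

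Ltf and Lcn2 were not neutrophil genes alone in this tissue, and some primary transcripts lay in other classes. In JQ1, macrophage-like cells held 2.13% of Elane, 9.69% of Mpo, 6.24% of Prtn3 and 10.7% of Ctsg UMIs, and fibroblast-like cells 3.67% of Prtn3 and 4.71% of Mmp8 UMIs. Neutrophil-like cells held 98.2% of Camp UMIs in JQ1 and 88.0% in control, and 97.5% and 99.5% of Ngp UMIs. They held 16.6% of Ltf UMIs in JQ1 and 0.322% in control, while gland-like cells held 79.1% and 84.6%. They held 53.6% of Lcn2 UMIs in JQ1 and 31.1% in control, while keratinocyte-like cells held 2.19% and 41.2%. Low Camp and Ngp counts were spread over other JQ1 classes, with 3.38 and 3.29 CPM in endothelial-like and 4.87 and 4.17 CPM in T-like cells, where the control library had 0 UMIs. Camp per Ngp UMI in the JQ1 library was 1.27 in immature, 0.0672 in Ccl3-led and 1.83 in unnamed cells. Over the other named classes it ran from 0.342 in erythroid-like to 1.62 in Schwann-like cells. The erythroid-like value rested on 1 barcode with 19 of 27 Camp and 77 of 79 Ngp UMIs, which also held UMIs of 12 neutrophil markers. Single JQ1 barcodes of other clusters held more: a keratinocyte-like cell with 146 Camp and 96 Ngp UMIs also held UMIs of 8 neutrophil and 12 keratinocyte markers.

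In keratinocyte-like cells, Lcn2 was 37.1 CPM in JQ1 (34.4 to 39.9) and 73.4 CPM in control (71.5 to 75.4), a ratio of 0.505 (0.466 to 0.547). The unnamed BC037156-led cluster, whose leading genes include Sprr1a, Krt90 and Krt42, lies outside this class. It held 1 JQ1 and 867 control cells, with Lcn2 at 20.7 CPM in control. With it added the log2 ratio was -0.74 in place of -0.99, and at clustering resolution 2.0 the class gave -0.51. Lcn2 was in 13.2% of the 1310 JQ1 cells of the class (median depth 12133.5 UMIs) and 19.0% of the 4317 control cells (16344 UMIs). At equal depth it was in 2.51% and 4.49%, a difference of -1.99 points (-2.97 to -0.804). The thinned share in T-like cells was 0.920% in JQ1 and 0.901% in control. Lcn2 was concentrated in few cells: the tenth of cells with most Lcn2 held 94.0% of the class's UMIs in JQ1 and 91.1% in control, and the highest cell had 54 and 147 UMIs. Neutrophil RNA in the droplets was measured beside it. Control keratinocyte-like cells held 5729 Lcn2 UMIs and 4 Camp plus Ngp UMIs, where the ratio of control neutrophil-like cells would bring 826 Camp plus Ngp UMIs. JQ1 keratinocyte-like cells held 699 Lcn2 UMIs and 306 Camp plus Ngp UMIs. At the ratio of all JQ1 neutrophil-like cells the 306 would bring 79.2 Lcn2 UMIs. Of the 306, 146 Camp and 96 Ngp UMIs lay in 1 barcode of the Krt6b-led cluster. That barcode also held 52 Lcn2 UMIs, the most in a JQ1 cell of its cluster. Lcn2 UMIs per Camp plus Ngp UMI were 0.203 in immature and 13.9 in Ccl3-led JQ1 cells. The expected count thus depends on which neutrophils are taken.

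By cluster, Lcn2 was lower in JQ1 in the Krt15-led cluster, at 39.0 CPM (772 cells) against 115 CPM in control (1284 cells), a ratio of 0.340 (0.303 to 0.382). It was also lower in the Krt42-led cluster, at 57.6 CPM (47 cells) against 135 CPM (1039 cells), and in the Krt6b-led cluster, at 37.4 CPM (107 cells) against 59.6 CPM (414 cells), a ratio of 0.627. In the Gm3776-led cluster it was 35.0 CPM in JQ1 (327 cells) and 29.2 CPM in control (1002 cells), a ratio of 1.20 (1.01 to 1.42), and in the Krt17-led cluster 16.3 CPM (57 cells) and 12.2 CPM (578 cells), with 1 inside the interval (0.794 to 2.13). Single cells carried much of some of these sums. Without the JQ1 cell that held most Lcn2, the ratio was 0.854 (0.700 to 1.04) in the Gm3776-led cluster, where it held 54 of 182 UMIs, 0.747 (0.365 to 1.37) in the Krt17-led cluster, where it held 9 of 20, and 0.292 (0.210 to 0.397) in the Krt6b-led cluster, where it held 52 of 96. Without the highest control cell as well, the ratios were 0.933 (0.763 to 1.13), 0.871 (0.425 to 1.61) and 0.388 (0.278 to 0.530). With the clusters weighted by their share of control UMIs the log2 ratio of the class was -0.93, beside -0.99 unweighted. Both alternatives were chosen after the data were seen.

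Of the class as a whole, 2.88% of 8103 measured genes passed 1.5-fold lower and 11.8% passed higher. A list of 15 genes tied to Lcn2 in epithelia through IL-17 or NF-kB was read, which includes the IL-17 receptor genes Il17ra and Il17rc. Of these 15, 8 passed lower and 2 higher, with a median log2 ratio of -0.82 against 0.18 over all genes. S100a9, a calprotectin subunit, was 574 CPM in JQ1 and 2090.2 CPM in control, Defb4, a beta-defensin, 5.73 and 31.3 CPM, and Slpi, an antiprotease, 184 and 458 CPM. The 2 that passed higher were Saa3, an acute-phase protein, at 37.6 CPM in JQ1 and 5.70 CPM in control, and Il17ra, a receptor of IL-17, at 12.9 and 8.10 CPM. Of 6 epithelial genes listed as independent of IL-17, such as Krt5 and Krt14, 0 passed either way. At the shares of all genes, so few genes could readily give 0, so this count does not set the lists apart. These list values were not split or weighted by cluster. The Krt42-led cluster, whose leading genes include S100a8 and S100a9, held 47 of 1310 JQ1 and 1039 of 4317 control cells. The class values of these genes thus mix unlike cells. Across cells, S100a8 (r = 0.27 in JQ1, n = 1310, and 0.32 in control, n = 4317) and Ifitm3 (0.24 and 0.36) were most like Lcn2.

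**Figure D4:**
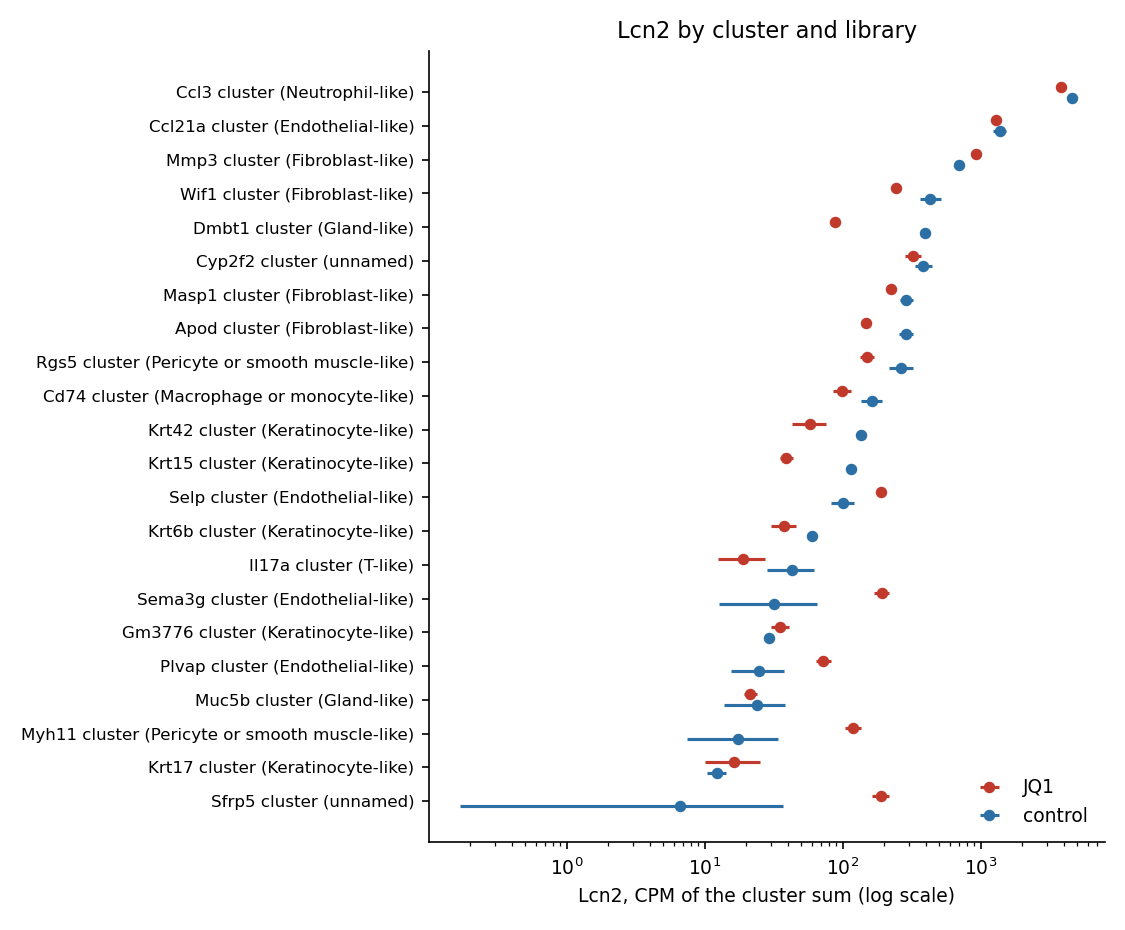
Lcn2 CPM on a log axis in each cluster with at least 40 cells in both libraries, JQ1 in red above control in blue, with 95% Poisson intervals, ordered by the control level. Among others, JQ1 lies left of control in the Krt15, Krt42, Dmbt1, Rgs5, Wif1 and Apod clusters. It lies right of control in the Myh11 cluster and in the Plvap, Selp and Sema3g endothelial clusters.

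Stromal, vascular and gland cells carried Lcn2 as well. The Ccl21a-led endothelial cluster, whose leading genes include the lymphatic vessel genes Lyve1, Flt4 and Prox1, had 1287 CPM in JQ1 and 1368 CPM in control, a ratio of 0.941 (0.839 to 1.06), with Lcn2 in 72.8% and 79.2% of its cells. The other endothelial clusters were higher in JQ1: the Plvap-led at 72.1 and 24.8 CPM in control, the Selp-led at 188 and 101 CPM, and the Sema3g-led at 191 and 31.8 CPM (230 and 7 UMIs). In the Sema3g-led cluster 1 JQ1 cell held 148 of these UMIs, and without it the ratio was 2.16, with an interval up to 5.55 that nearly reached 1 at its lower end, in place of 6.01, while without the control cell that held 5 of 7 UMIs it was 20.9. In the Plvap-led cluster the ratio of 2.91 was 4.82 without the control cell that held 9 of 22 UMIs. The Mmp3-led fibroblast cluster had 926 CPM in JQ1 and 692 CPM in control, a ratio of 1.34 (1.24 to 1.45). Fibroblast-like cells in all had 345 and 424 CPM, a ratio of 0.813 (0.769 to 0.861), with 0.777 in the Masp1-led, 0.514 in the Apod-led and 0.563 in the Wif1-led cluster. The Rgs5-led pericyte or smooth muscle-like cluster had a ratio of 0.565, or 0.782 (0.601 to 1.03) without the highest control cell. The Myh11-led cluster of that class had 119 and 17.3 CPM (234 and 8 UMIs), a ratio of 6.87 (3.43 to 16.1). Without the JQ1 cell that held 100 of these UMIs the Myh11-led ratio was 3.96. Among all clusters but the neutrophil ones, the Ccl21a-led and Mmp3-led clusters had the highest Lcn2 CPM in both libraries.

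Ltf and Lcn2 were lower together in the Dmbt1-led gland cluster, led by secretory genes of saliva. Ltf was 1953 CPM in JQ1 (363 cells) and 4183 CPM in control (144 cells), a ratio of 0.467 (0.456 to 0.478), and Lcn2 was 87.1 and 395 CPM, a ratio of 0.220 (0.200 to 0.243). In the cluster led by the mucin gene Muc5b Ltf ran the other way, at 248 CPM in JQ1 (1168 cells) and 11.2 CPM in control (63 cells, 8 UMIs), and Lcn2 was 21.4 and 23.8 CPM. Of its 3979 Ltf UMIs in JQ1, 1459 were in 1 cell, without which the ratio was 14.1 (7.13 to 32.6) in place of 22.2. Its Lcn2 ratio of 0.899 was 0.494 without the highest JQ1 cell (155 of 343 UMIs) and 4.97 without the highest control cell (14 of 17 UMIs). Most JQ1 gland-like cells were in the Muc5b-led cluster and most control ones in the Dmbt1-led cluster, so the class value of Ltf, 849 CPM in JQ1 and 3259 CPM in control, mixes unlike cells. In the unnamed Cyp2f2-led epithelial cluster Lcn2 was at 324 CPM in JQ1 and 384 CPM in control (0.691 to 1.03 as a ratio) and Ltf at 329 and 366 CPM (0.737 to 1.10). The Ltf ratio of 0.899 was 0.461 without the highest JQ1 cell (117 of 236 UMIs) and 2.67 without the highest control cell (119 of 178 UMIs). Camp and Ngp were at 0 UMIs in control gland-like cells, which held 10511 Ltf UMIs.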

How the data were processed

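Both files, as deposited, give UMI counts per gene and barcode that were not normalized. Per the submitters' processing notes, the authors worked on mm10 with Cell Ranger 3.1.0 and with Seurat 4.0.0; no source used here names the annotation or a barcode filter. The lowest barcode total in either library was 500 UMIs.

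A cell was kept if it had 200 or more genes and less than 20% of UMIs from mitochondrial genes. Scrublet (scanpy 1.11.5) marked 424 JQ1 (2.93%) and 119 control (1.44%) barcodes as doublets, which were removed. One clustering of both libraries used 2000 variable genes, none of them among the 10 described, 30 principal components, 15 neighbours and Leiden resolution 1.0 (leidenalg 0.10.2, scikit-learn 1.9.0, seed 0, no batch correction). Clusters were named by resemblance to marker lists, with 3 markers needed at 2-fold over the median cluster and in 10% of cells; this rule was settled after the clusters had been seen. The genes and lists were chosen with earlier results of these data known.

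UMIs of a class were added up in each library and divided by the class total to give CPM. Intervals were exact Poisson for CPM, exact conditional for ratios, Clopper-Pearson for shares and Newcombe for differences (scipy 1.17.1, numpy 2.4.6, pandas 2.3.3, Python 3.11.15, matplotlib 3.10.9). A count of 0 was set to 3 counts over the class. A gene counted as measured where both libraries together held 20 UMIs and the higher one 10 CPM, and it passed at 1.5-fold. Named genes were the 10, members of the lists, and the 5 genes most like a member by Pearson's r across cells (the lower of both libraries' values, genes in at least 5% of cells). The ratio step was checked on simulated counts. Alternatives changed the filter, doublet removal, clustering, thinning depth, scaling, summing, the choice of cells and, after the data were seen, the weighting of clusters and the cell with most Lcn2 or Ltf UMIs.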

Additional observations from a re-analysis of the deposited data

Results flagged for a closer look

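Barcodes left out by the cell filters were used in no comparison, and Camp or Ngp UMIs were found among them. They were in 3.02% of 2189 such JQ1 barcodes (66 barcodes, 2.34 to 3.82%), against 0.499% of 1604 such control barcodes (8 barcodes, 0.216 to 0.980%). Of these, 7 JQ1 and 0 control barcodes held 20 or more Camp plus Ngp UMIs.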

How the results depend on the processing

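Of 137 alternative values, the main results gave 57 within the counting interval, 17 that moved and 1 that reversed, and single genes in further classes gave 38, 22 and 2. The reversed ones were the secondary sum without the immature cluster (-1.20 against 5.65, log2 JQ1 over control) and, with no cell filter, Camp (2.01 against -1.99) and Ngp (1.27 against -1.19) in Ccl3-led cells; the cause was not tested. Without the immature cluster the primary sum was 0.039 (7.78 with it), Mmp8 0.28 (1.18) and Ly6g 1.38 (3.99). The difference in immature share, 22.4 points, was 26.9 with a stricter cell filter and 18.5 with none. Thinning to 2000 UMIs gave 5.84 points for the primary share (2.02 at 1000). The marker gate gave 4.91 for the secondary sum. Size factors gave 5.38 for the secondary sum, 0.91 for Mmp8 and -1.17 for Lcn2 in keratinocyte-like cells, a shift of 0.27 in the median gene of neutrophil-like and 0.18 of keratinocyte-like cells. Means over cells gave 5.16 for the primary sum, 5.15 for the secondary sum, 1.44 for Mmp8 and -1.28 for keratinocyte Lcn2. Keratinocyte Lcn2 (-0.99) was -0.51 at resolution 2.0. Chosen after seeing the data, it was -0.74 after subtracting the T-like level, -0.74 with the BC037156-led cluster added and -0.93 with clusters weighted by their share of control UMIs.

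Resolution 0.5 gave no immature cluster, hence no share and no Ccl3-led values, and the marker gate was not applied to that share. Subtracting the fibroblast-like Lcn2 level gave no value because it exceeds the keratinocyte-like one. With the stricter filter Scrublet marked 0.0933% of control barcodes, so doublets there were in effect kept. No paired analysis was possible because each treatment has 1 library, and for the same reason no library was left out. Depth limits the control side of Elane, Mpo and Ctsg, where 0 UMIs over the class allow up to 3.23 CPM.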
